A study of Mus musculus with 12 samples.

Results

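The Id genes (Id1, Id2, Id3 and Id4), the ligand gene Bmp4 and the inhibitory Smad genes Smad6 and Smad7 were followed in embryonic stem cells of the mouse (mESCs) and in NIH3T3 fibroblasts. The 7 genes were taken by their symbols from the 54446 genes of the RNA-seq tables, of which 21905 are protein-coding, together with every ChIP-seq peak within 30 kb of each gene. The study tagged Ctr9, a core subunit of the Paf1 complex that travels with elongating RNA polymerase II, with GFP in both cell types to compare where the complex sits on chromatin. The files hold 7 peak lists from ChIP-seq and 2 tables of RNA levels, from 9 of the 12 samples, with 1 library in each group. In mESCs of the E14TG2a line (named ES-E14), ChIP-seq was made for Ctr9-GFP, the active enhancer and promoter mark H3K27ac, GFP-tagged NELFA (a subunit of the pausing factor NELF), and RNA polymerase II phosphorylated at Ser5 (Ser5p, early in transcription) or Ser2 (Ser2p, late in transcription). In NIH3T3, an established line of embryonic fibroblasts, Ctr9-GFP and H3K27ac were profiled. Both cell types grew in the same medium with 10% FBS and LIF, and neither BMP nor a BMP inhibitor is named among the additions. The Ctr9-GFP lines were knock-in cells sorted for GFP rather than single clones, and NELFA-GFP came from a transgene on a bacterial artificial chromosome, in cells that were also used for Ser5p. Whether the RNA came from tagged or untagged cells is not given in the sources used here. No value has a replicate, so no test was made, and intervals cover counting error only.

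BMP ligands bind paired type I and type II receptors, which phosphorylate Smad1, Smad5 and Smad9, and these enter the nucleus with Smad4. The Id genes are among their best known direct targets. Id proteins have no DNA-binding region of their own and hold the E proteins in dimers that cannot bind the E-box, and in mESCs BMP acting through Id genes is known to work together with LIF to hold back differentiation. Smad6 and Smad7 are induced by the same signals and block the receptors and Smads, closing a negative feedback loop.

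The RNA-seq libraries held 26400407 (mESC) and 28849497 (NIH3T3) estimated counts. Their labels fitted their markers. The 5 mESC markers (Pou5f1, Nanog, Sox2, Zfp42 and Esrrb) lay between 211 and 1402 TPM (a transcript level corrected for length and library size) in mESCs and between 0 and 0.511 in NIH3T3 cells. The 5 fibroblast markers (Col1a1, Col1a2, Col5a1, Pdgfrb and Thy1) lay between 0.132 and 5.69 TPM in mESCs and between 39.6 and 1082 in NIH3T3 cells. Of 13 markers of endoderm, neural, mesoderm and trophoblast cells, the highest in mESCs was Gata4 with 2.21 TPM. In NIH3T3 cells Dab2 reached 24.2 TPM and the other 12 at most 2.85. The part of such cells in the levels below was not tested. Over 9628 protein-coding genes at 1 TPM or more in both libraries, the median log2 ratio of mESC to NIH3T3 was 0.08. The lists held 44738 Ctr9, 19305 H3K27ac, 1979 NELFA, 4487 Ser5p and 1673 Ser2p peaks in mESCs, and 22015 Ctr9 and 34215 H3K27ac peaks in NIH3T3 cells, on the assembled chromosomes. They give no read counts, so the depth of the ChIP-seq libraries is unknown.

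The sequence that Smads are best known to read at Id genes is the BMP response element, here GGCGCC followed 5 bases later by GTCT, searched on both strands of GRCm38 (mm10). Every Id gene held at least 1 such element within 30 kb, while Bmp4, Smad6 and Smad7 held none. The pattern is one already known from Id genes, so its presence there is not an independent result. Elements with other letters or spacing were not counted, so a gene with none may still hold Smad sites. The 7 elements are shown because they are what the Id genes share in sequence, with GGCGCC and GTCT in capitals and 7 bases on either side. Positions in kb are counted from the start of the main coding transcript in the direction of transcription, and are negative before the start.
Id1 at 3.22 kb, chr2:152739464-152739492, plus strand: gtacggaGGCGCCtggctGTCTgggcccg
Id2 at −2.78 kb, chr12:25098847-25098875, minus strand: cgcgcctGGCGCCagagaGTCTgctccgg
Id2 at 3.03 kb, chr12:25093037-25093065, minus strand: tttgggtGGCGCCtgctaGTCTgccttgg
Id3 at −2.96 kb, chr4:136140533-136140561, plus strand: ccaccctGGCGCCaggctGTCTggggctg
Id3 at 1.30 kb, chr4:136144786-136144814, plus strand: cctccctGGCGCCggccaGTCTgcggcat
Id3 at 4.48 kb, chr4:136147974-136148002, plus strand: gttcgctGGCGCCcggatGTCTgagctct
Id4 at 1.66 kb, chr13:48262883-48262911, plus strand: ggtcggtGGCGCCagttaGTCTgcagcga
The genome held 447 such elements on 21 chromosomes, and 625 of 21938 protein-coding genes (2.85%) had 1 within 30 kb. Only 0.132% of genes had 2 or more, as Id2 had, and 0.0228% had 3 or more, as Id3 had. In 7 of the 7 elements the base after GTCT was G, which completes the Smad site GTCTG, against 169 of 447 (37.8%) over the genome. In 6 of 7 the base before GGCGCC was T, against 131 of 447 (29.3%). These neighbouring bases were looked at after the sequences were seen.

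The Id elements also lay under peaks. Of the 7 elements, 5 lay wholly inside a peak of at least 1 list, against 71 of 447 (15.9%) over the genome. The 447 were taken over the whole genome and not only near expressed genes, so these shares do not compare like with like. The Id2 element at −2.78 kb lay in an H3K27ac peak of mESCs and in one of NIH3T3 cells. The Id2 element at 3.03 kb lay past the gene, in a Ctr9 peak of each cell type. The Id1 element of this exact form lay past the gene in a Ctr9 peak of mESCs. The Id3 element at 1.30 kb, inside an intron, lay in a Ctr9 and an H3K27ac peak of NIH3T3 cells, and the intronic Id4 element lay in an H3K27ac peak of NIH3T3 cells. The outer Id3 elements lay in no peak. A match of letters does not show that a Smad was bound there.

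At the RNA level the Id family was high in both cell types, but its make-up differed. The 4 Id genes together reached 261 TPM in mESCs and 377 TPM in NIH3T3 cells. Id1 made up 54.2% of that sum in mESCs and 26.8% in NIH3T3 cells, whereas Id3 made up 8.81% in mESCs and 39.6% in NIH3T3 cells. Following the study, a gene was represented by its transcript of highest TPM, and differences are given on the log2(TPM + 1) scale as mESC minus NIH3T3, which understates differences of low genes. In a bulk library, fewer cells expressing a gene and less RNA per cell cannot be told apart.

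Of the 7 genes, Bmp4 was at least 2-fold higher in mESCs, as were 13.5% of all protein-coding genes. Id3 and Smad6 were at least 2-fold lower in mESCs, as were 11.3% of all genes, and the other 4 lay within 2-fold. The median difference of the 7 genes was −0.35, against 0.00 over all protein-coding genes. Of the 21905 protein-coding genes, 9526 were under 1 TPM in both libraries and could not pass 2-fold on this scale. Such genes lower both shares, here and wherever the shares are used below, and none of the 7 was among them. In mESCs the order of the levels was Id1, Bmp4, Id2, Smad7, Id3, Id4 and Smad6, and in NIH3T3 cells it was Id3, Id2, Id1, Id4, Smad7, Smad6 and Bmp4. By the sum of transcripts Bmp4, with 248.8 TPM, came before Id1, with 142 TPM, in mESCs. Of that Bmp4 sum 48.2% came from Bmp4-204, a short retained-intron transcript with 140.3 counts, and without it Bmp4 stayed below Id1. In NIH3T3 cells Smad7, with 32.6 TPM, came before Id4, with 20.9 TPM, by the sum of transcripts. Without replicates it cannot be said which neighbours in these orders differ beyond their spread.

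**Figure D1:**
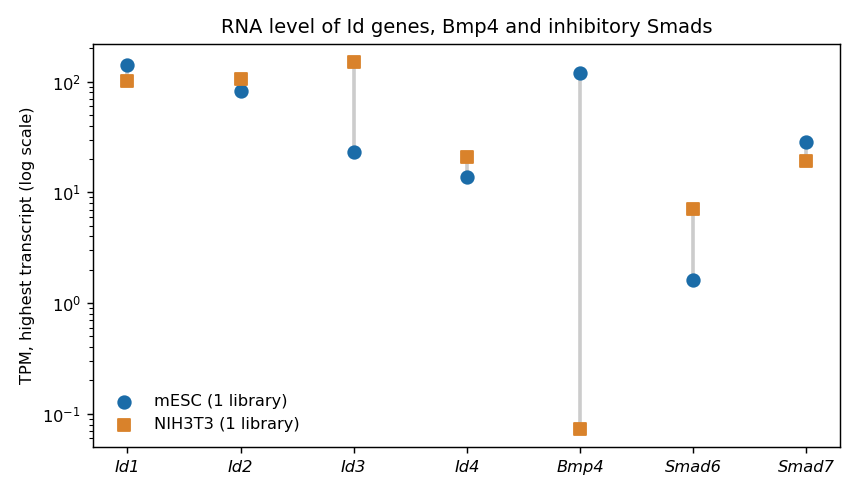
RNA level in TPM (log scale) of the 7 genes in the mESC library (circles) and the NIH3T3 library (squares), 1 library each, with a grey line joining the values of a gene. Bmp4 spans 119.8 to 0.0735 TPM and Id3 23.0 to 150 TPM in opposite directions, while Id1, Id2, Id4 and Smad7 lie within 2-fold.

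Id1 (chr2:152736251-152737410, plus strand) is the Id gene most often used as a read-out of BMP signalling. It stood at 141 TPM in mESCs and 101 TPM in NIH3T3 cells, a log2 difference of 0.48. Of protein-coding genes, 97.2% were lower than Id1 in mESCs and 96.1% in NIH3T3 cells. As shares of each library, its 2412 and 1838 estimated counts gave a ratio of 1.43 (95% exact counting interval 1.35 to 1.52).

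Id2 (chr12:25093799-25097140, minus strand) is an Id gene with broad roles in lymphoid and epithelial cells. It stood at 82.7 TPM in mESCs and 106 TPM in NIH3T3 cells, a log2 difference of −0.35, from 1636 and 2228 counts. Of protein-coding genes, 94.9% were lower than Id2 in mESCs and 96.3% in NIH3T3 cells, so that Id1 and Id2 were the Id genes high in both.

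Id3 (chr4:136143497-136145755, plus strand) was the Id gene that differed most. It stood at 23.0 TPM in mESCs and 150 TPM in NIH3T3 cells, a log2 difference of −2.65, from 614 and 4242 counts. The share of counts was 6.32-fold higher in NIH3T3 cells (5.81 to 6.89). Id3 was the highest of the 7 genes in NIH3T3 cells and only the fifth in mESCs.

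Id4 (chr13:48261228-48266026, plus strand), an Id gene known from neural and germ cells, was the lowest of the family in both libraries. It stood at 13.7 TPM in mESCs and 20.9 TPM in NIH3T3 cells, a log2 difference of −0.58, from 959 and 1586 counts. A330033J07Rik and Gm49291, annotated on the opposite strand over Id4, reached at most 0.0169 TPM.

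Bmp4 (chr14:46383520-46390669, minus strand), the ligand, showed the widest gap. It stood at 119.8 TPM in mESCs and 0.0735 TPM in NIH3T3 cells, a log2 difference of 6.81, from 4676 and 3 counts. As shares of each library the ratio was 1703, with a counting interval of 582 to 8262. In mESCs the transcript of highest TPM was not the main coding one. Bmp4-204, a retained-intron transcript of 258 bases, had 119.8 TPM from only 140.3 counts because its effective length was 59.1 bases. The coding Bmp4-201 had 102 TPM from 3860 counts, which were 82.5% of the counts of the gene. The log2 difference was 6.59 over coding transcripts, 7.86 over the sum of transcripts and 9.43 with a pseudocount of 0.1 TPM. Gm15222, annotated on the opposite strand within Bmp4, had 1.54 TPM in mESCs and was listed at 0 in NIH3T3 cells.

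Smad6 (chr9:63953076-64022059, minus strand), which competes with Smad4 for Smad1, was the lowest of the 7 genes in mESCs. It stood at 1.63 TPM in mESCs and 7.02 TPM in NIH3T3 cells, a log2 difference of −1.61, from 110 and 502 counts. The share of counts was 4.18-fold higher in NIH3T3 cells (3.39 to 5.18).

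Smad7 (chr18:75367529-75395935, plus strand), which targets activated receptors for degradation, was the higher of the inhibitory Smads in both libraries. It stood at 28.8 TPM in mESCs and 19.3 TPM in NIH3T3 cells, a log2 difference of 0.55, from 3102 and 1648 counts. These levels belong to different transcripts. In mESCs Smad7-201, of 4278 bases, was highest with 28.8 TPM, ahead of Smad7-204, of 769 bases, with 22.8 TPM. In NIH3T3 cells the short Smad7-204 was highest with 19.3 TPM, ahead of Smad7-201 with 13.3 TPM. With Smad7-201 in both libraries the log2 difference was 1.06, which puts Smad7 past 2-fold and makes it the second gene higher in mESCs. The share of counts over all transcripts was 2.06-fold higher in mESCs (1.94 to 2.18). The comparison by a single transcript was added after the values were seen.

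By likeness of level, measured as the distance in the plane of the log2(TPM + 1) values of both libraries over 12372 genes at 1 TPM or more in either, the nearest gene was Cops3 for Id1, Arf4 for Id2, Opa3 for Id4, AU018091 for Bmp4, Selenop for Smad6 and Fdx1l for Smad7. Their distances lay between 0.003 and 0.037. The nearest gene to Id3 was Fads1, with 26.4 and 148 TPM, at a distance of 0.192, and it was the only 1 of the 12372 within 0.25 of Id3. Within the same distance Id1 had 46 genes and Smad7 155.

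The E proteins, the partners that Id proteins hold, were lower in mESCs, 3 of 3 by at least 2-fold, as were 11.3% of all protein-coding genes. By the sum of transcripts Tcf3 fell short of 2-fold, with a log2 difference of −0.96. Tcf3 stood at 12.2 and 27.1 TPM, Tcf4 at 10.8 and 24.7 TPM, and Tcf12 at 4.29 and 21.8 TPM in mESCs and NIH3T3 cells. Their sum was 27.3 TPM in mESCs and 73.7 TPM in NIH3T3 cells. The sum of Id levels was 9.56 times the sum of E protein levels in mESCs and 5.12 times in NIH3T3 cells. The size of this ratio rested on the choice of 1 transcript per gene, since by the sum of transcripts it was 3.43 in mESCs and 1.94 in NIH3T3 cells, an alternative added after the values were seen.

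Across 51 other genes of the BMP pathway, 8 were at least 2-fold higher and 18 at least 2-fold lower in mESCs, and 25 lay within 2-fold, with a median difference of −0.16. Over all protein-coding genes 13.5% were higher and 11.3% lower. With a pseudocount of 0.1 TPM the pathway counts were 15 higher and 20 lower. Of 10 ligand genes 2 were higher and none lower, and 8 were under 1 TPM in both libraries. Gdf3, a ligand of the same superfamily known from pluripotent cells, stood at 68.9 TPM in mESCs and 0.0210 TPM in NIH3T3 cells, where it had 1 count. The highest ligand in NIH3T3 cells was Bmp8b with 0.786 TPM, and Gdf5 stood at 0.0614 and 0.303 TPM. All 10 ligands listed beside Bmp4 were thus under 1 TPM in NIH3T3 cells.

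Secreted inhibitors went the other way, with none of 9 higher and 5 lower in mESCs and a median difference of −1.46. Nbl1, a secreted BMP antagonist, stood at 0.107 TPM in mESCs, from 4 counts, and 18.7 TPM in NIH3T3 cells, from 796 counts. Twsg1, which can both aid and hinder BMP binding, was the highest of the 9 in mESCs with 16.3 TPM and stood at 86.3 TPM in NIH3T3 cells. Nog stood at 0.553 TPM in mESCs and was listed at 0 in NIH3T3 cells.

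Of 11 receptors and co-receptors 2 were higher and 4 lower in mESCs. The type I receptor Bmpr1a was the highest in both libraries, with 25.5 TPM in mESCs and 32.0 TPM in NIH3T3 cells. The type II receptor Bmpr2 stood at 2.33 and 17.0 TPM, and the co-receptor Eng at 6.18 and 0.108 TPM. Of 9 Smads and their regulators 2 were higher and 3 lower. The receptor-regulated Smads were Smad1 with 10.9 and 20.7 TPM, Smad5 with 7.04 and 18.7 TPM, and Smad9 with 0.0468 and 4.11 TPM, of which Smad5 and Smad9 were past 2-fold. Smad4, their shared partner, stood at 36.1 and 32.6 TPM. Zfp423, a zinc finger partner of Smad1, stood at 14.4 TPM in mESCs and was listed at 0 in NIH3T3 cells.

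Of 9 further target genes 2 were higher and 3 lower in mESCs, and 4 were under 1 TPM in both libraries. Tbx3, a transcription factor gene, stood at 38.7 and 10.1 TPM, and Atoh8 at 0.0344 and 15.7 TPM, in mESCs and NIH3T3 cells. The few targets past 2-fold therefore did not share 1 direction, and the Id genes did not either.

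**Figure D2:**
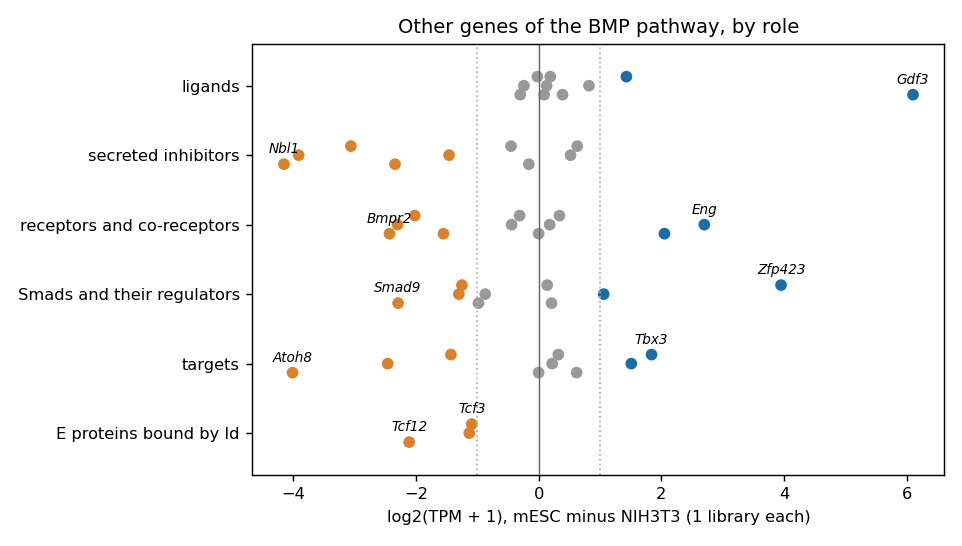
Difference in log2(TPM + 1), mESC minus NIH3T3 (1 library each), of 51 other genes of the BMP pathway by role, with 1 point per gene and dotted lines at 2-fold. Secreted inhibitors (5 of 9) and E proteins (3 of 3) lie to the left, lower in mESCs, and Gdf3 lies farthest to the right.

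On chromatin, Ctr9 peaks of mESCs lay within 30 kb of 6 of the 7 genes, where 56.8% of all protein-coding genes had a peak. H3K27ac peaks of mESCs lay near 6 genes (61.0% of all genes), NELFA near 3 (19.0%), Ser5p near 5 (22.2%) and Ser2p near 3 (13.0%). In NIH3T3 cells Ctr9 peaks lay near 4 genes (38.5% of all genes) and H3K27ac near 7 (68.0%). Among the 25% of expressed genes with the highest TPM, the share for Ctr9 was 95.1% in mESCs and 75.5% in NIH3T3 cells. The Ctr9 counts of the 7 genes were thus not above those of highly expressed genes. The same share for mESCs was 94.8% for H3K27ac, 40.7% for NELFA, 47.7% for Ser5p and 29.3% for Ser2p. For H3K27ac of NIH3T3 cells it was 98.4%. In mESCs Id3 had a Ctr9 peak and no H3K27ac peak, and Smad6 the reverse.

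The total length under peaks differed between the lists of the cell types. Ctr9 peaks of mESCs covered 27.3 kb around Smad7, 10.3 kb around Id1, 10.2 kb around Bmp4, 3.11 kb around Id2, 1.40 kb around Id4 and 0.43 kb around Id3. In NIH3T3 cells they covered 5.16 kb around Smad7, 4.43 kb around Id1, 1.43 kb around Id3 and 1.11 kb around Id2, and none around the rest. H3K27ac peaks ran in the other direction, with more bases under peaks in NIH3T3 cells at each of the 7 genes. The H3K27ac list of NIH3T3 cells was also larger as a whole, with a median fold enrichment of 6.75 over all peaks against 3.98 in mESCs. The Ctr9 list in turn was the larger in mESCs, with 44738 against 22015 peaks. For Ctr9 as for H3K27ac, a difference between the libraries and one between the cells cannot be told apart.

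**Figure D3:**
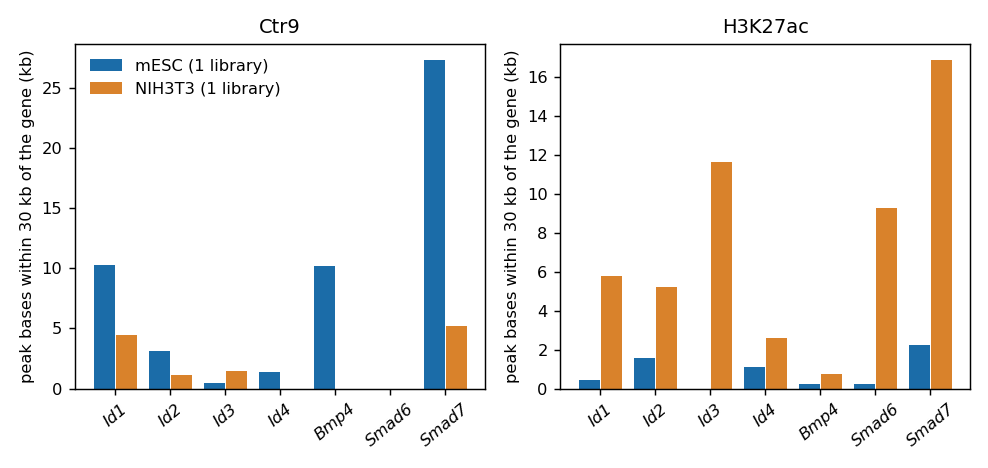
Kilobases under Ctr9 peaks (left) and H3K27ac peaks (right) within 30 kb of each gene, with 1 library per bar. Ctr9 covers more in mESCs at 5 genes and more in NIH3T3 cells at Id3, and H3K27ac covers more in NIH3T3 cells at each of the 7 genes.

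Around Id1, 11 Ctr9 peaks of mESCs were called, and 17.0% of protein-coding genes had as many. The strongest, with a fold enrichment over the local background of 8.55, spanned 3422 bases from the start of the gene to beyond its end, with its summit at 2.02 kb. Of Ctr9 peaks 3.55% were as strong. A further 6 lay between −8.16 and −0.97 kb, and 2 lay in the body of the neighbour H13, a gene for a signal peptide peptidase with 16.7 TPM in mESCs and 61.1 TPM in NIH3T3 cells. NELFA had a single peak at 0.02 kb (fold enrichment 7.54), and Ser5p had its strongest peak of 6.88 at 0.05 kb and 3 more up to 2.53 kb. Ser2p had a single peak, at 1.54 kb. NELFA and the strongest Ser5p signal thus sat at the start, Ser2p past the end, and Ctr9 over the whole gene.

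H3K27ac at Id1 was weak in mESCs, with peaks of 3.17 in H13 and 2.92 at 5.30 kb and none in between. In NIH3T3 cells 9 H3K27ac peaks were called, led by 15.4 at 5.44 kb and 14.2 at −0.75 kb. The mESC peak at 5.30 kb overlapped the strongest of them. An interval of the super enhancer list of the study, which holds dense clusters of enhancers in mESCs, lies over Id1 and the bases before it. It overlapped 7 Ctr9, 5 Ser5p, 1 NELFA and 1 Ser2p peaks of mESCs and no H3K27ac peak of mESCs, and 2 Ctr9 and 6 H3K27ac peaks of NIH3T3 cells. Cox4i2, a gene for a cytochrome oxidase subunit that lies past Id1, held 2 of the 9 Ctr9 peaks of NIH3T3 cells, although it was listed at 0 TPM there.

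Id2 had 4 Ctr9 peaks in mESCs. The strongest, of 7.85, had its summit at 2.95 kb, past the end of the gene at 2.29 kb, and it held the downstream BMP response element printed above. In NIH3T3 cells the strongest of 2 Ctr9 peaks (5.96) had its summit at 2.65 kb, and it held that element too. Ser5p peaks of mESCs lay at the start, at 0.03 kb (2.88), and past the end, at 2.79 kb (4.73), and a Ser2p peak lay at 2.81 kb. The Ser5p peak at the start and the Ser2p peak were both lost at −log10 q of at least 5. No NELFA peak was called at Id2. The strongest H3K27ac peak had its summit at −2.57 kb in mESCs (5.41) and at −2.54 kb in NIH3T3 cells (16.7), and both peaks held the upstream element.

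Id3 was nearly bare in mESCs. Its only peak of the 5 mESC lists was a Ctr9 peak at 29.64 kb that lay in the body of E2f2, a cell cycle gene with 7.21 TPM in mESCs and 0.776 TPM in NIH3T3 cells. Without peaks inside other genes, none of the 5 lists had a peak within 30 kb of Id3, although Id3 stood at 23.0 TPM. In NIH3T3 cells Id3 had 5 Ctr9 peaks, all between 0.65 and 2.39 kb, of which the strongest (3.78) lay at 2.08 kb and was the only 1 left at −log10 q of at least 5. It had 17 H3K27ac peaks, and only 0.848% of protein-coding genes had 17 or more, with the strongest (24.4) at −8.42 kb.

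At Id4 both Ctr9 peaks of mESCs lay at the end of the gene, at 4.06 kb (5.73) in the last exon and at 5.16 kb (4.05) past it. A Ser5p peak lay at −0.08 kb and no NELFA or Ser2p peak was called. H3K27ac peaks lay at 0.21 kb in mESCs (4.17) and at 0.20 kb in NIH3T3 cells (16.7), and these overlapped. No Ctr9 peak was called in NIH3T3 cells, where the Id4 level was the higher of the pair. The 250 bases before the RefSeq start of Id4 (GRCm38, chr13:48260866-48261115, plus strand) are shown because the Ser5p peak began within them, over their last bases, with motifs searched in capitals.
Id4 promoter: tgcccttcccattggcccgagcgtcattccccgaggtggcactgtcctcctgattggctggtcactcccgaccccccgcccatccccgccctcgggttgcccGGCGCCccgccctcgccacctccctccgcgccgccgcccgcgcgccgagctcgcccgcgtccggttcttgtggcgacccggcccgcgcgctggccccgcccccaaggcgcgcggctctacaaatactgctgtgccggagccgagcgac
The capitals mark 1 GGCGCC, at −148 bases from the RefSeq start, outside that peak. The RefSeq start itself lay at −112 bases from the transcript start used for positions in kb. The letters searched, on both strands, were GGCGCC (the GC-rich Smad1 and Smad5 site), the BMP response element, GTCTG (the Smad site), CANNTG (the E-box, to which E proteins bind and which Id proteins leave unbound) and TTCNNNGAA (the Stat site, read downstream of LIF). GGCGCC reads the same on both strands, and the BMP response element holds it and, where G follows, GTCTG as well.

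**Figure D4:**
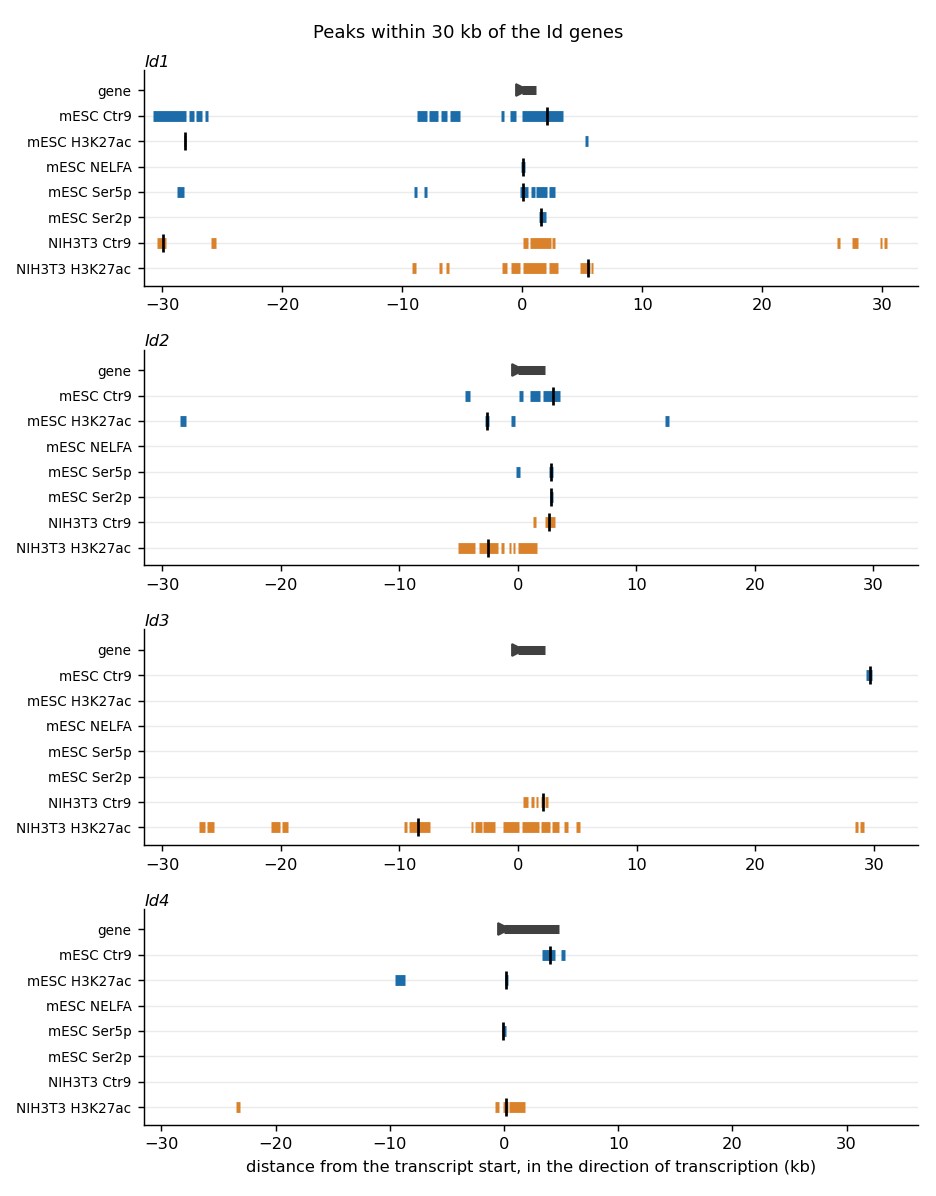
Peaks of the 7 lists around Id1, Id2, Id3 and Id4 by distance from the transcript start in kb, blue for mESCs and orange for NIH3T3 cells. Bars span peaks, black ticks mark the summit of the strongest peak of a list and the grey bar is the gene. Id3 has 1 mESC peak, at 29.64 kb, against 5 Ctr9 and 17 H3K27ac peaks in NIH3T3 cells.

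Bmp4 in mESCs carried 7 Ctr9 peaks from −0.47 kb to past its end. The strongest (9.64) was 4029 bases wide with its summit at 7.66 kb, behind the end of the gene at 7.15 kb, and 2.69% of Ctr9 peaks were as strong. It lay in Gm15217, a gene model on the opposite strand that was listed at 0 TPM in both libraries. NELFA had a peak at −0.19 kb (5.96) and Ser5p had 6 peaks, led by 7.69 at −0.22 kb, and 1.97% of genes had as many Ser5p peaks. Both Ser2p peaks lay past the gene, the stronger at 8.45 kb. The only H3K27ac peak of mESCs was weak (2.99) and lay at −7.63 kb. In NIH3T3 cells no Ctr9 peak was called, and the H3K27ac peaks lay at −17.52 and 32.24 kb with fold enrichments of 4.49 and 4.10.

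The 250 bases before the start of Bmp4 (GRCm38, chr14:46390670-46390919, minus strand) are shown because the NELFA, Ser5p and Ctr9 peaks of mESCs met there. The Ctr9 peak reached only the first of these bases, up to −234 bases from the start, and its summit at −475 bases lay outside them.
Bmp4 promoter: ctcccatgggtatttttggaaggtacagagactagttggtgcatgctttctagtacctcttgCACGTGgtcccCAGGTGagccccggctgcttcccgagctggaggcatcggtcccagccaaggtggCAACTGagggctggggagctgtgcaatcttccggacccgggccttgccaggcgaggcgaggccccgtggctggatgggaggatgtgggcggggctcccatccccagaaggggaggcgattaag
The capitals mark 3 E-boxes, at −188, −177 and −123 bases, and none of the other letters searched was present. RefSeq promoters of 300 bases (250 before to 50 after the start) were at hand for 5 of the 7 genes, all but Id1 and Smad7. GGCGCC was in those of Id2 and Id4, against 11.9% of 32851 promoters, and GTCTG in that of Id3 alone, against 49.6%. An E-box was in those of Bmp4, Id2 and Smad6, against 72.3%. No Stat site (8.30%) and no BMP response element (0.0731%) was in any of the 5. The RefSeq start of Id3 lay at 325 bases from the transcript start used for positions in kb. The 250 bases before the RefSeq start overlapped an annotated exon of the same gene at Id2 and Id3.

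Smad6 had no Ctr9, NELFA, Ser5p or Ser2p peak in mESCs within 30 kb, and no Ctr9 peak in NIH3T3 cells. Its single mESC peak was H3K27ac at −0.58 kb (2.79), and 89.6% of H3K27ac peaks were as strong or stronger. In NIH3T3 cells 10 H3K27ac peaks were called, led by 28.9 at 94.39 kb, past the end of the gene at 68.98 kb, and 3.02% of peaks were as strong. Next came 20.8 at 80.36 kb and 14.2 at −28.33 kb. The peak at −0.68 kb (7.47) overlapped that of mESCs.

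At Smad7 22 Ctr9 peaks were called in mESCs, and 3.77% of protein-coding genes had as many. They ran from 1.45 kb through the introns to the strongest (9.47) at 28.89 kb, past the end of the gene at 28.41 kb, with only 2 before the start. In NIH3T3 cells 13 Ctr9 peaks were called, from 9.87 kb to 30.29 kb, with the strongest (8.14) at 28.68 kb. Each of those 13 overlapped a Ctr9 peak of mESCs, whereas 39.1% of all Ctr9 peaks of NIH3T3 cells did. The mESC peaks lay close together there and covered 27.3 kb around Smad7, so an overlap by 1 bp was likely from coverage alone. NELFA had a peak at −0.76 kb (4.32), and Ser5p had 3, at −24.37, −0.60 and 0.02 kb. No Ser2p peak was called. Gm20544, a transcript of the opposite strand with its start at −441 bases, stood at 4.57 and 7.92 TPM.

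H3K27ac at Smad7 was strongest in mESCs at −0.51 kb (7.74), and 8.17% of H3K27ac peaks were as strong. In NIH3T3 cells 21 H3K27ac peaks were called, as many as 0.315% of genes had, led by 23.1 at −24.72 kb and 22.6 at −0.54 kb. The mESC peaks at −24.71, −0.51 and −0.01 kb each overlapped an NIH3T3 peak and that at −17.34 kb did not, where 47.4% of all H3K27ac peaks of mESCs overlapped 1. Of the 2 super enhancers of the study within 30 kb of Smad7, the longer ended at the gene start and overlapped 2 H3K27ac, 2 Ser5p and 1 NELFA peaks and no Ctr9 peak of mESCs. The shorter overlapped no peak of any list.

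**Figure D5:**
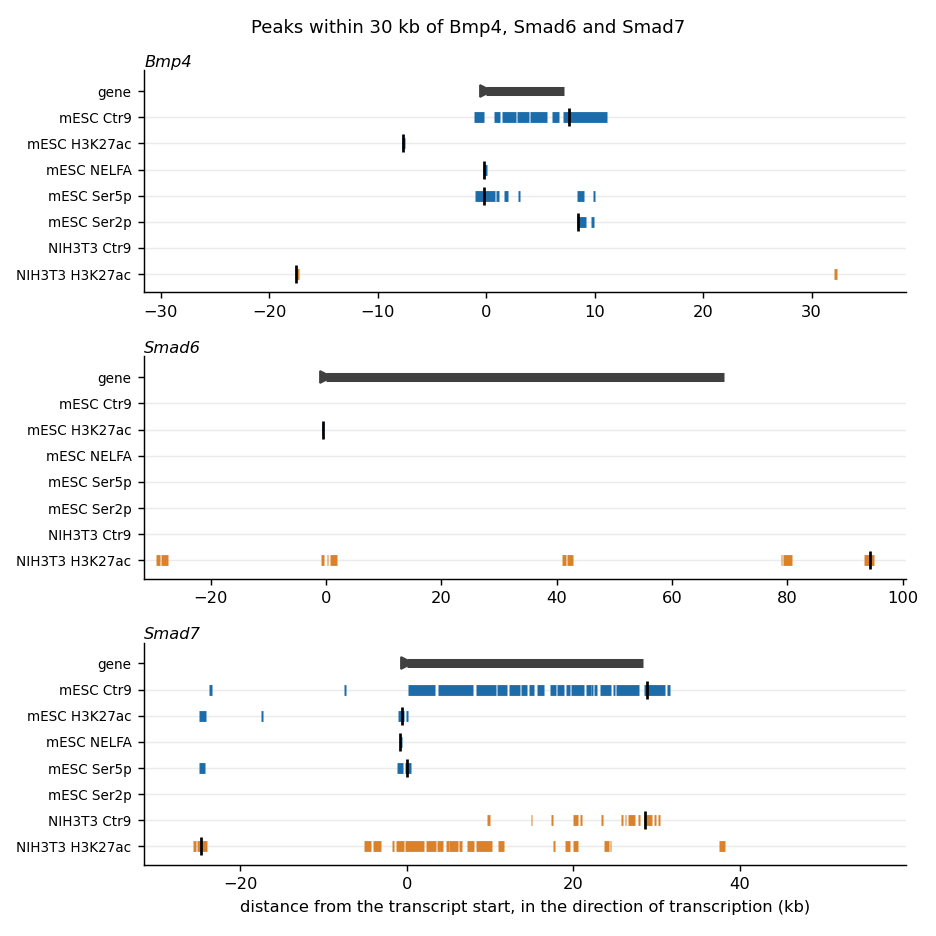
Peaks of the 7 lists around Bmp4, Smad6 and Smad7 by distance from the transcript start in kb, drawn as for the Id genes: blue for mESCs, orange for NIH3T3 cells, black ticks at the summit of the strongest peak, grey for the gene. Ctr9 covers Bmp4 in mESCs only, no Ctr9 peak lies at Smad6, and Smad7 is covered in both cell types.

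The position of the strongest Ctr9 peak along the gene was compared with that at all genes. Genes entered with a Ctr9 peak anywhere from 1 kb before to 5 kb past the gene, and the summit of the strongest was compared with the annotated start and end. In mESCs the summit was nearer the end at 5 of 5 such genes, Id1, Id2, Id4, Bmp4 and Smad7, within 1 kb of the end at each. This was also the case at 81.8% of 9679 protein-coding genes, so the 5 genes followed the general pattern. In NIH3T3 cells it was nearer the end at 4 of 4, Id1, Id2, Id3 and Smad7, against 60.6% of 5659 genes, and within 1 kb of the end at 3. At Id1 in NIH3T3 cells the summit lay 1461 bases past the end. The window reached farther past the end than before the start, which favours the end in short genes such as Id1, and the rule was set after the positions were seen.

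NELFA was called near starts. The 3 NELFA summits lay between −0.76 and 0.02 kb. The peak counted at Smad7 spanned −794 to −538 bases, beyond the start of the opposite-strand Gm20544 at −441 bases. Whether that peak belongs to Smad7 or to Gm20544 cannot be told apart here. At each of Id1, Bmp4 and Smad7 a Ser5p peak overlapped the NELFA peak. A Ctr9 peak of Id1 and one of Bmp4 overlapped the NELFA peak as well, and at Smad7 no Ctr9 peak did. At Bmp4 the Ctr9 peak spanned −1111 to −234 bases and the NELFA peak −247 to 88 bases, so they met only at their edges. At Id1 the summit of that Ctr9 peak lay at 2.02 kb and the NELFA summit at 0.02 kb. The genes with NELFA were the 3 of the 7 with the longest Ctr9 coverage in mESCs and also 3 of the 4 highest in TPM there, while Id2, with 82.7 TPM, had no NELFA peak. At −log10 q of at least 5 the NELFA peak of Smad7 was lost, which left 2 genes with NELFA.

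In windows of 300 bases around summits, GGCGCC was found in 8 of 47 Ctr9 windows of mESCs near the 7 genes, against 2.95% of all Ctr9 windows. In NIH3T3 cells it was found in 14 of 69 H3K27ac windows, against 10.8% of all. In mESCs it was in 3 of 14 H3K27ac windows (14.1% of all), 2 of 19 Ser5p windows (13.4%), and none of 3 NELFA (24.2%) or 4 Ser2p windows (8.31%), and in NIH3T3 cells in 3 of 29 Ctr9 windows (3.79%). The Stat site was found in 13 of the 69 H3K27ac windows of NIH3T3 cells, against 8.14%, and in 1 of the 47 Ctr9 windows of mESCs, against 7.96%. It was in 5 of 29 Ctr9 windows of NIH3T3 cells (8.13% of all) and 2 of 14 H3K27ac windows of mESCs (6.99%). The other mESC lists had it in 1 of 3 NELFA (6.47%), 1 of 19 Ser5p (7.29%) and none of 4 Ser2p windows (7.17%). GTCTG was in 25 of the 47 Ctr9 windows of mESCs, against 55.4%, and the E-box in 36 of those 47, against 82.7%. In mESCs GTCTG was also in 4 of 14 H3K27ac windows (53.7% of all) and 3 of 3 NELFA windows (46.9%). It was in 10 of 19 Ser5p (52.4%) and none of 4 Ser2p windows (53.2%). In the same order the E-box was in 8 (69.1%), 1 (59.2%), 11 (71.1%) and 4 (79.8%) of these. In NIH3T3 cells GTCTG was in 17 of 29 Ctr9 (53.8%) and 35 of 69 H3K27ac windows (52.9%), and the E-box in 25 (81.1%) and 48 (71.3%). Windows of neighbouring peaks can overlap and share base composition, so these shares are descriptions.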

How the data were processed

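Per the submitters' processing notes and the methods, ChIP-seq reads went through Bowtie2 (version 2.3.5.1, build mm10) and MACS2 (version 2.2.6, q of 0.01), library by library. The peak lists deposited by the authors give a fold enrichment (a ratio over local background), −log10 p and q values and a score. For RNA, estimated counts and TPM of each transcript were deposited as kallisto (version 0.46.1) gave them on a GENCODE transcriptome. The RNA libraries were strand-specific, and whether kallisto used the strand is not given in the sources used here.

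Genes were those of GENCODE M21, and 1 transcript of highest TPM stood for a gene. A peak belonged to a gene when it overlapped the gene or 30 kb on either side by at least 1 bp. Counting intervals were exact at 95% (Poisson counts, conditional binomial ratios). Named genes were the 7 members, in each role of the pathway list the highest in each library and the largest difference in each direction, Smad1, Smad4, Smad5, Smad9, the E proteins, the nearest gene in level, and genes holding a counted peak. Gm20544, Gm15222, A330033J07Rik and Gm49291 were named after their values were seen. A gene of the pathway list is not reported here and entered no count of that list. Members and lists were chosen with earlier results of these data known. Scripts were tested on simulated data and used Python 3.11.15, pandas 2.3.3, NumPy 2.4.6, SciPy 1.17.1, pysam 0.24.0 and Matplotlib 3.10.9. In all 23 alternatives were planned and 8 added after seeing the data. The 3 input libraries were not analysed here.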

Additional observations from a re-analysis of the deposited data

How the results depend on the processing

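With 1 library per group, no replicate could be left out. No paired analysis was possible because each group has 1 library and no result comes from a test. None of the 35 recomputed log2 differences changed sign. The count of the 7 genes at least 2-fold higher in mESCs rose from 1 to 2 with the same coding transcript in both libraries, an alternative added after seeing the data, and the count lower fell from 2 to 1 with a 4-fold threshold. Pathway genes higher in mESCs rose from 8 to 15 with a pseudocount of 0.1 TPM, which raises low genes by its construction. Of 28 recomputed counts of genes with a peak, each stayed within 1.5 times, a wide limit for so few genes. H3K27ac of mESCs fell from 6 to 4 genes with a window of the gene and 1 kb on either side. NELFA fell from 3 to 2 at −log10 q of at least 5, and Ser2p from 3 to 2 under each of these settings. The share of protein-coding genes with a peak at −log10 q of at least 5 was 53.7% for Ctr9, 59.9% for H3K27ac, 16.9% for NELFA, 19.5% for Ser5p and 11.7% for Ser2p in mESCs and 34.8% for Ctr9 in NIH3T3 cells. With a window of 10 kb it was 48.9%, 48.7%, 12.8%, 15.5% and 8.88% in mESCs in the same order, and 30.1% for Ctr9 and 59.4% for H3K27ac in NIH3T3 cells. The peak count of a gene fell to 0 in 7 cases. At −log10 q of at least 5 these were H3K27ac at Smad6, NELFA at Smad7 and Ser2p at Id2 in mESCs. With a window of 10 kb they were Ctr9 at Id3 in mESCs and H3K27ac at Bmp4 in NIH3T3 cells, and without peaks in other genes Ctr9 at Id3 and Ser2p at Bmp4 in mESCs. The unknown ChIP-seq depth limits any reading of absent peaks.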
